A study of Mus musculus with 13 samples.

Results

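The 8 genes described here encode ligands of the CXC chemokine family: Cxcl1, Cxcl2, Cxcl3, Cxcl9, Cxcl10, Cxcl11, Cxcl14 and Cxcl16. They were taken by gene symbol from a table of 24562 genes measured in LPS-treated macrophages, each as its most highly counted RefSeq transcript. Each of the 8 had 1 row in the table, and all 8 had enough counts to be tested, as did 11942 of the 24562 genes. CXC chemokines are small proteins that guide leukocytes along gradients through receptors of the G protein-coupled class. Cxcl1, Cxcl2 and Cxcl3 act on Cxcr2 and draw neutrophils, and their transcription in macrophages is driven by NF-kB downstream of the LPS receptor Tlr4. Cxcl9, Cxcl10 and Cxcl11 act on Cxcr3 and draw activated T cells and natural killer cells, and they are classic interferon-induced genes. Cxcl16 is a membrane-anchored ligand of Cxcr6 that can be shed by proteases, and Cxcl14 is a chemokine best known from epithelia.

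The study asked how loss of ATP citrate lyase (Acly), the cytosolic enzyme that turns citrate into acetyl-CoA, alters the response of macrophages to lipopolysaccharide (LPS), the bacterial endotoxin. Bone marrow-derived macrophages (BMDMs) came from female mice on the C57Bl/6J background that all carried floxed Acly (Acly fl/fl). In AclyM-KO mice a Cre recombinase driven from the Lyz2 (LysM) locus deleted the floxed exon 9 in myeloid cells, and the control mice (labelled WT) were Acly fl/fl mice; their age was not given in the sources used here. All cultures received LPS at 100 ng/mL, for 3 h (control n = 3, AclyM-KO n = 3) or for 24 h (control n = 4, AclyM-KO n = 3). No culture without LPS is among these 13 libraries, so the values are levels under LPS and not inductions over rest. The labels do not say that the cultures of a group came from separate animals, and p-values then measure the spread between these samples.

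Of the 13 libraries, 12 held 21274102 to 59577343 counts and control 24 h replicate 1 held 34467, which correlated less with the 24 h libraries (Pearson r of log2 values 0.730 to 0.731) than with the 3 h libraries (0.771 to 0.775). The main values below leave that library out, and the 24 h results are also given with it. Acly itself read 105 to 107 CPM (counts scaled to a common library size) in control and 37.7 to 46.2 CPM in AclyM-KO libraries at 3 h, and 107 to 113 against 29.0 to 30.5 CPM at 24 h, so it was lower in every AclyM-KO library than in every control library of its time, and some Acly transcript remained. Macrophage markers summed to 9080 to 9200 CPM in control and 6140 to 7010 CPM in AclyM-KO at 3 h. At 24 h they summed to 5930 to 6230 CPM against 4430 to 4530 CPM. Lyz2, the locus that carries the Cre, was lower in AclyM-KO at log2 fold changes of -0.97 at 3 h and -1.40 at 24 h. Its mean was 5237 CPM in control against 2666 CPM in AclyM-KO at 3 h, and 2436 against 920 CPM at 24 h. This was by far the largest CPM difference of the 7 macrophage markers at both times. By edgeR, Mertk was also lower at 3 h (-0.31, adjusted p = 0.00041) and 24 h (-0.33, adjusted p = 0.000149). At 3 h Fcgr1 was lower (-0.26, adjusted p = 0.00284) and Adgre1 higher (0.24, adjusted p = 0.000716) by edgeR. Csf1r, Cd68 and Itgam had log2 fold changes of -0.17, 0.07 and 0.07 at 3 h (edgeR adjusted p from 0.221 to 0.653). At 24 h these were -0.04, 0.03 and -0.10 (edgeR adjusted p from 0.47 to 0.793). The 9 neutrophil markers summed to 11.8 to 15.3 CPM at 3 h and 3.44 to 4.7 CPM at 24 h. Ly6g and Retnlg stood at 0 in all 4 groups. The 4 tested ones (S100a8, S100a9, Ngp and Ltf) had log2 fold changes of -1.14 to -2.31 from 3 h to 24 h in control. In AclyM-KO these ran from -1.34 to -2.06. For AclyM-KO over control, the log2 fold changes of these 4 ran from -0.16 to 0.23 at 3 h and from -0.32 to 0.09 at 24 h, and none passed. The part of the neutrophil markers in the ligand values was not tested. T and B cell markers never passed 0.306 CPM in sum and dendritic cell markers never passed 2.69 CPM.

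In the mouse genome (GRCm38) 6 of the 8 genes lie on chromosome 5 in a pair of clusters. Cxcl3 (NM_203320, chr5:90786103-90789600), Cxcl1 (NM_008176, chr5:90891241-90893115) and Cxcl2 (NM_009140, chr5:90903871-90905938) lie on the plus strand, with 101.6 kb between Cxcl3 and Cxcl1 and 10.76 kb between Cxcl1 and Cxcl2. Cxcl9 (NM_008599, chr5:92321347-92328079), Cxcl10 (NM_021274, chr5:92346638-92348889) and Cxcl11 (NR_038116, chr5:92359544-92365485) lie on the minus strand, 18.56 kb and 10.65 kb apart. Cxcl11 is annotated as a polymorphic pseudogene in this genome, so its row counts a transcript that need not give a protein. Cxcl14 lies at chr13:56288643-56296551 (NM_019568) and Cxcl16 at chr11:70453983-70459984 (NM_023158), both on the minus strand. Cxcl11 overlaps Gm2673 by 1582 bases and Cxcl16 overlaps Zmynd15 by 552 bases, each on the opposite strand.

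Sequence upstream of the start site was on hand from RefSeq (GRCm38.p6) for 6 of the 8 genes. The stretches of Cxcl1, Cxcl2 and Cxcl3 are shown because these neighbours share a motif in them, and those of Cxcl10 and Cxcl9 because they hold different motifs. Each is written 5′ to 3′ and ends at the base before the RefSeq start site, with 120 bases for the first 3 genes and 250 bases for the others, and capitals mark matches to the NF-kB decamer (kB decamer) and to the core of the interferon-stimulated response element (ISRE core, GAAANNGAA).
Cxcl1 (chr5:90891125-90891244, plus strand): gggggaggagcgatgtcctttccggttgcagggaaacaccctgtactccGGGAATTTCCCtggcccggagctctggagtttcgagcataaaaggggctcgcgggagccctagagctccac
Cxcl2 (chr5:90903779-90903898, plus strand): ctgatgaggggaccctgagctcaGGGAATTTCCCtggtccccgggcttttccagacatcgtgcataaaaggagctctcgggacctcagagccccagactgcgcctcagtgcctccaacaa
Cxcl3 (chr5:90785981-90786100, plus strand): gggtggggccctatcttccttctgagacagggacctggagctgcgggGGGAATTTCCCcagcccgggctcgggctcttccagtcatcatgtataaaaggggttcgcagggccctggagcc
Cxcl10 (chr5:92348890-92349139, minus strand): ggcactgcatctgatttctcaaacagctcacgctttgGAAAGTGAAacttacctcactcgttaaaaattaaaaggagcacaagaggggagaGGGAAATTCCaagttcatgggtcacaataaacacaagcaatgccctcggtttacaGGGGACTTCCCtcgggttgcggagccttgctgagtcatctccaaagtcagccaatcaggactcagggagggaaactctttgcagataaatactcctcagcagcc
Cxcl9 (chr5:92328080-92328329, minus strand): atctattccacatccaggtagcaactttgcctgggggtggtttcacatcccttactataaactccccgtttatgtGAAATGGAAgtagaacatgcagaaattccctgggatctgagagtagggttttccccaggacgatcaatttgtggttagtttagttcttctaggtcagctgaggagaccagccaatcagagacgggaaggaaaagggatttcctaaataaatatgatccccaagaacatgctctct

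The run GGGAATTTCCC stands in all 3 of the neutrophil-attracting genes and is the longest stretch that their 250 upstream bases have in common. It starts 71 bases upstream of the start site in Cxcl1, 97 in Cxcl2 and 73 in Cxcl3, and it holds 2 overlapping matches to the kB decamer on opposite strands. Of 32851 upstream windows of the same length, 12 hold this run as written (0.0365%), and they belong to 12 genes of which these are 3. The run was searched in this direction only, and it was picked because these 3 genes share it. A kB decamer on either strand was found in 7.25% of all windows, and an ISRE core in 7.13%. Cxcl10 holds both, with kB decamer matches in 2 places and an ISRE core, GAAAGTGAA, as well as a match to the AP-1 motif TGANTCA, which 6.75% of windows hold. Cxcl9 holds the ISRE core GAAATGGAA and Cxcl14 the ISRE core GAAACAGAA, and neither has a kB decamer in its window. The TATA box letters (TATAAA, 12.4% of windows) were found in Cxcl3, starting 30 bases upstream, and in Cxcl9, starting 195 bases upstream. The stretches of Cxcl1 and Cxcl2 printed above hold CATAAAAG, where that of Cxcl3 holds TATAAAAG. GENCODE, which gave the gene positions above, and RefSeq begin some of these transcripts at slightly different bases. These are matches of letters in 250 bases and do not show that a factor binds there.

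**Figure D1:**
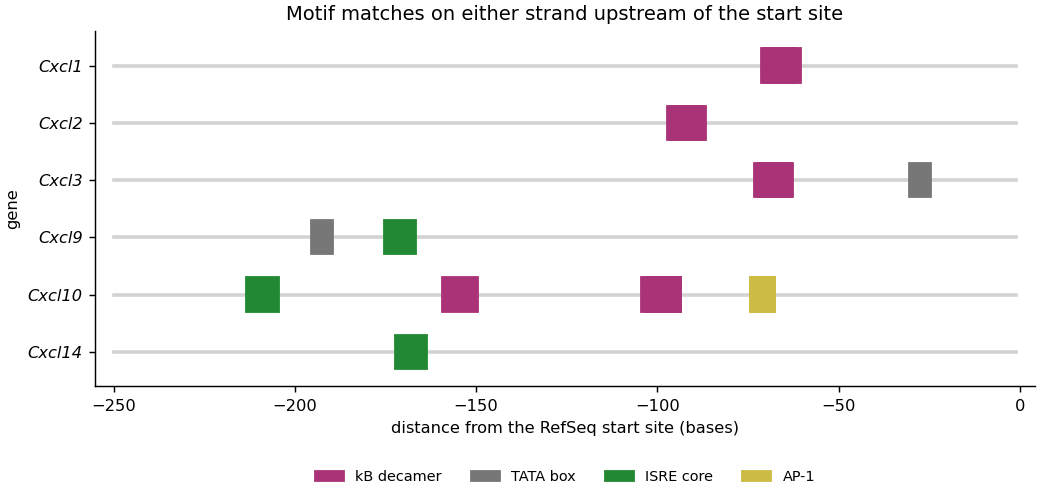
Motif matches in the 250 bases upstream of the RefSeq start site of 6 CXC ligand genes; the horizontal axis is the distance from the start site in bases, each grey line is a gene and each colored box is a match on either strand. Cxcl1, Cxcl2 and Cxcl3 have their kB decamer matches within 100 bases of the start site, and the ISRE cores of Cxcl9, Cxcl10 and Cxcl14 lie farther upstream.

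After 3 h of LPS, Cxcl1 and Cxcl2 were higher in AclyM-KO than in control BMDMs by more than 2-fold, while no interferon-induced ligand rose. A gene counted as changed where its adjusted p was under 0.05 and its log2 fold change exceeded 0.75 in size. By this rule 2 of the 8 ligands rose and 0 fell, where 1.41% of all tested genes rose and 0.603% fell. DESeq2 gave the same counts, and at an unadjusted p under 0.05 by edgeR 3 ligands were higher and 2 lower, against 14.6% and 13.4% of all tested genes. The median log2 fold change of the 8 ligands was 0.05 and that of all tested genes was -0.005. In bulk RNA, more cells that make a chemokine and more RNA per cell cannot be told apart.

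Cxcl1, known in mice as KC, read 6.55, 4.16 and 6.03 CPM in the control libraries and 16.3, 11.8 and 16.9 CPM in the AclyM-KO libraries. Every AclyM-KO library lay above every control library. Its log2 fold change was 1.42 ± 0.15 (SE), a 2.68-fold difference, with an adjusted p of 1.52e-07. Cxcl2, known as MIP-2, read 38.0, 34.4 and 38.3 CPM in control and 97.6, 73.6 and 94.5 CPM in AclyM-KO. These groups were also fully apart, and the lowest AclyM-KO library was the same replicate 2 for both genes. The log2 fold change of Cxcl2 was 1.26 ± 0.14, a 2.40-fold difference, with an adjusted p of 0.00017.

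Without AclyM-KO 3 h replicate 2, which differed more from replicate 1 than any other pair of replicates did (chi-square per degree of freedom 11.2), the log2 fold changes were 1.58 for Cxcl1 and 1.39 for Cxcl2. Cxcl3, the third Cxcr2 ligand of this cluster, read 3.72, 3.23 and 3.49 CPM in control and 4.56, 4.33 and 5.14 CPM in AclyM-KO at 3 h. Its groups did not overlap, but its difference was smaller and did not pass (log2 fold change 0.43, 95% confidence interval 0.04 to 0.81, adjusted p = 0.136). The summed level of the 3 genes was 41.8 to 48.2 CPM in control and 89.7 to 119 CPM in AclyM-KO.

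Cxcl10, also called IP-10, was the most abundant of the 8 and read 3793, 3644 and 3615 CPM in control and 3631, 3769 and 3723 CPM in AclyM-KO at 3 h. The groups overlapped, and the log2 fold change of 0.01 had a narrow 95% confidence interval of -0.08 to 0.10 (adjusted p = 0.928). Cxcl9, also called MIG, read 144, 128 and 145 CPM in control against 122, 176 and 146 CPM in AclyM-KO. Here too the groups overlapped (log2 fold change 0.09, 95% confidence interval -0.17 to 0.35, adjusted p = 0.672), and without AclyM-KO replicate 2 the value was -0.05. Cxcl11, also called I-TAC, read 44.6, 38.0 and 38.7 CPM in control and 28.5, 28.8 and 25.5 CPM in AclyM-KO. All AclyM-KO libraries lay below all control libraries, and the log2 fold change of -0.55 ± 0.08 had an adjusted p of 6.31e-06 but did not reach the 0.75 limit.

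Cxcl16 read 232, 220 and 229 CPM in control and 213, 193 and 209 CPM in AclyM-KO at 3 h. The groups were apart by a small step (log2 fold change -0.15 ± 0.05, adjusted p = 0.0406), short of the fold limit. Its adjusted p was 0.136 with all 13 libraries and 0.190 without AclyM-KO 3 h replicate 2. Cxcl14 read 1.64, 1.08 and 1.65 CPM in control against 0.563, 1.57 and 1.20 CPM in AclyM-KO, from 11 to 36 counts per library, and these groups overlapped (log2 fold change -0.35 ± 0.30, adjusted p = 0.479). In all, the AclyM-KO libraries lay entirely above the controls for 3 ligands and entirely below for 2, and 30.1% of all tested genes had groups that did not overlap at 3 h. With the adjusted p alone, 4 of the 8 ligands passed (Cxcl1, Cxcl2, Cxcl11 and Cxcl16), where 15.4% of all tested genes did.

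**Figure D2:**
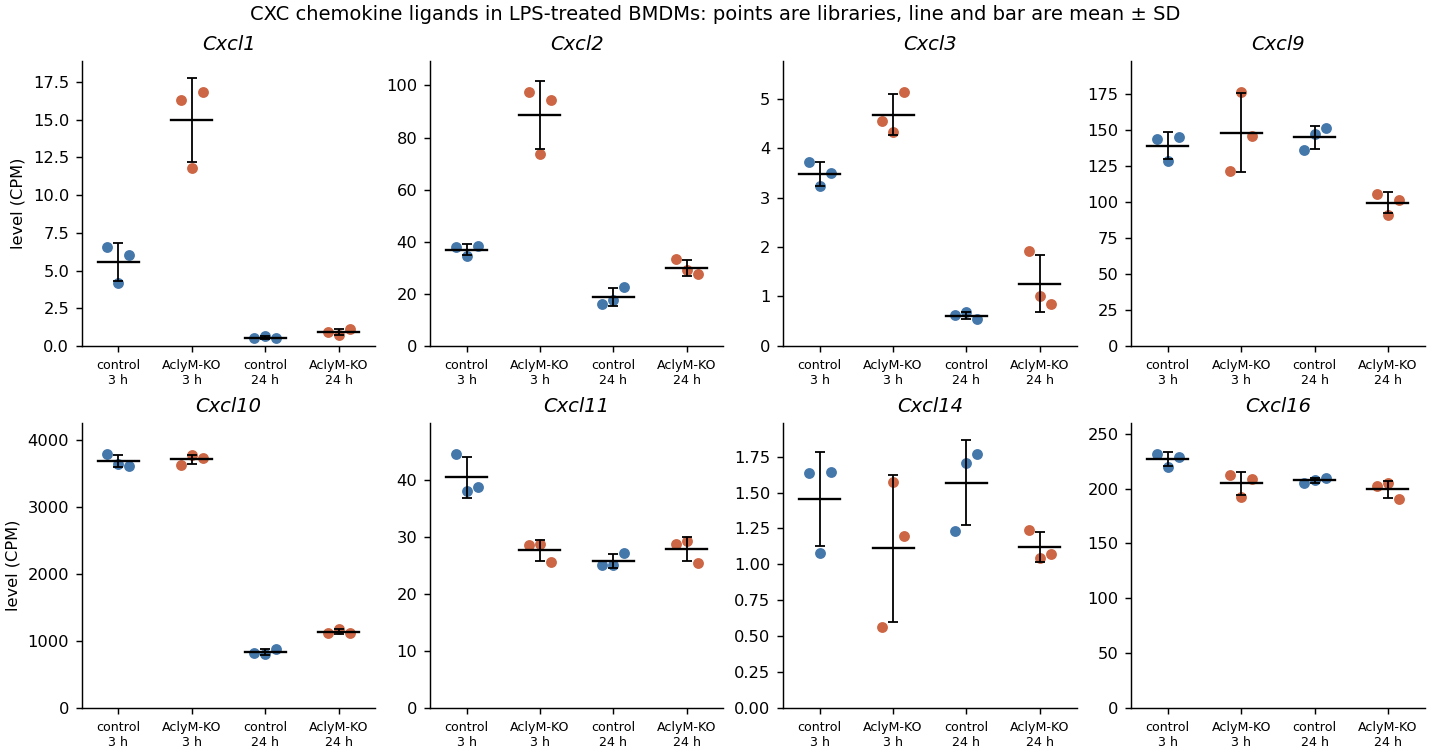
Level of each CXC ligand in CPM (vertical axes, starting at 0) in the 12 libraries used, by genotype and hours of LPS; points are libraries (blue control, orange AclyM-KO), and the line and bar are the mean and SD of n = 3. Cxcl1 and Cxcl2 stood highest in AclyM-KO at 3 h, while Cxcl10 overlapped between genotypes at 3 h and was apart at 24 h.

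After 24 h of LPS, Cxcl3 was the ligand that passed both thresholds, and it was higher in AclyM-KO. Thus 1 of the 8 ligands rose and 0 fell, where 0.896% of all tested genes rose and 0.486% fell. The median log2 fold change of the 8 was 0.28 and that of all tested genes 0.005. By DESeq2 the counts were the same, and at an unadjusted p under 0.05 by edgeR 4 ligands were higher and 1 lower, against 15.1% and 11.2% of all tested genes. Libraries of both genotypes did not overlap for 6 of the 8 ligands (33% of all tested genes), with AclyM-KO above control for 4 of them and below for 2. With the adjusted p alone, 4 passed (Cxcl2, Cxcl3, Cxcl9 and Cxcl10), where 13.9% of all tested genes did.

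Cxcl3 read 0.615, 0.682 and 0.534 CPM in control replicates 2 to 4 and 1.91, 1.01 and 0.844 CPM in the AclyM-KO libraries. The groups were apart, but AclyM-KO replicate 1 stood well above the other 2 of its group, and the values rest on 15 to 51 counts. Its log2 fold change was 1.10 ± 0.28 (adjusted p = 0.00685), and with all 13 libraries the adjusted p was 0.00514. The call was lost without AclyM-KO 24 h replicate 1 (0.65, adjusted p = 0.175) and without control 24 h replicate 4 (0.95, adjusted p = 0.0781).

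Cxcl2 read 15.9, 17.4 and 22.8 CPM in control and 33.2, 29.0 and 27.5 CPM in AclyM-KO at 24 h. AclyM-KO was above control in every library, with a log2 fold change of 0.64 ± 0.15 (adjusted p = 0.0161) that did not reach the fold limit. Without control 24 h replicate 4, the highest control, it was 0.84 (adjusted p = 0.000392) and passed. Cxcl1 had declined to 12 to 33 counts per library, or 0.492, 0.639 and 0.504 CPM in control and 0.901, 0.724 and 1.15 CPM in AclyM-KO. The groups did not overlap, yet the difference did not pass at this depth (log2 fold change 0.80 ± 0.31, 95% confidence interval 0.16 to 1.44, adjusted p = 0.0901).

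Cxcl10 read 818, 805 and 886 CPM in control and 1114, 1185 and 1118 CPM in AclyM-KO at 24 h. All AclyM-KO libraries lay above the controls, and the log2 fold change of 0.45 ± 0.05 (1.36-fold, adjusted p = 4.19e-08) stayed under the fold limit. With the shallow control replicate 1 included, whose 112 Cxcl10 counts amount to 2508 CPM, the value was 0.33 with an adjusted p of 0.344. Cxcl9 read 136, 147 and 151 CPM in control and 106, 91.1 and 101 CPM in AclyM-KO. AclyM-KO lay below control in every library (log2 fold change -0.54 ± 0.12, adjusted p = 0.0114), again under the fold limit. Over 13 alternative settings its value stayed between -0.59 and -0.49, while its adjusted p ran from 4.63e-11 to 0.122. Cxcl11 read 25.0, 25.0 and 27.1 CPM in control and 28.8, 29.3 and 25.5 CPM in AclyM-KO, with overlapping groups (log2 fold change 0.11, 95% confidence interval -0.04 to 0.26, adjusted p = 0.374).

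Cxcl16 read 205, 208 and 210 CPM in control and 203, 205 and 191 CPM in AclyM-KO at 24 h, a log2 fold change of -0.06 (95% confidence interval -0.16 to 0.04, adjusted p = 0.490). Cxcl14 read 1.23, 1.70 and 1.77 CPM against 1.24, 1.05 and 1.07 CPM (log2 fold change -0.52 ± 0.26, adjusted p = 0.202). Neither passed, and the Cxcl14 groups overlapped while those of Cxcl16 were barely apart. The summed level of Cxcl1, Cxcl2 and Cxcl3 was 17.1 to 23.8 CPM in control and 29.5 to 36.0 CPM in AclyM-KO, and that of Cxcl9, Cxcl10 and Cxcl11 was 977 to 1064 CPM against 1244 to 1306 CPM. With all 13 libraries, Cxcl10 was the ligand whose adjusted p at 24 h crossed 0.05.

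**Figure D3:**
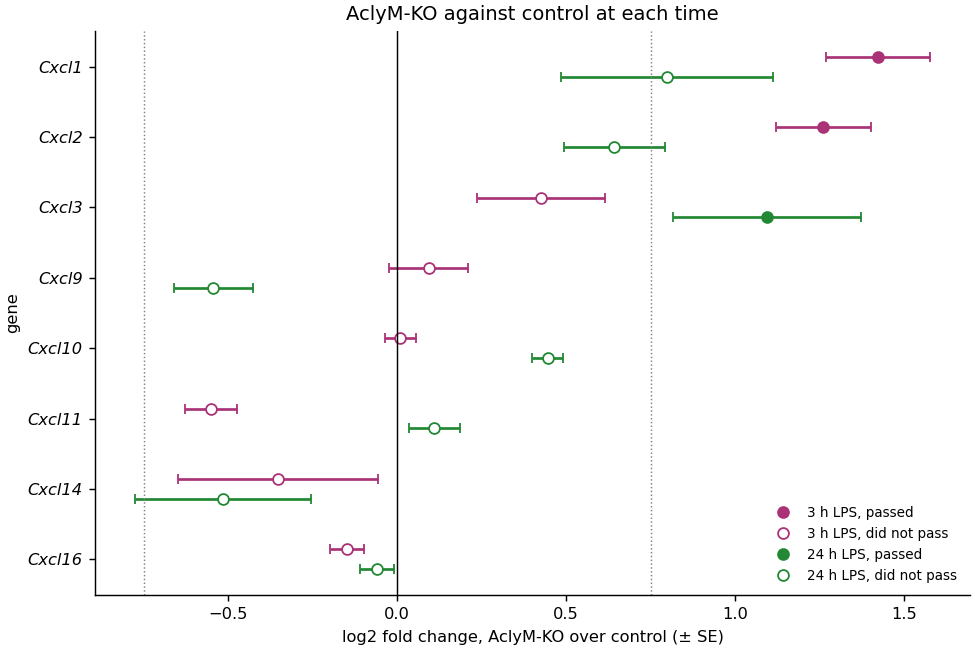
Log2 fold change of AclyM-KO over control with its SE (horizontal axis) for the 8 CXC ligands (vertical axis) after 3 h and 24 h of LPS; filled points passed an adjusted p under 0.05 and the fold limit of 0.75, drawn as dotted lines. Cxcl1 and Cxcl2 passed at 3 h and Cxcl3 at 24 h, and Cxcl10 moved from 0.01 to 0.45.

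Whether the genotype difference itself changed between 3 h and 24 h was tested as an interaction of genotype and time. It passed an adjusted p under 0.05 for 3 of the 8 ligands, which were the 3 interferon-induced ligands Cxcl9, Cxcl10 and Cxcl11, where 9.59% of all tested genes passed. For Cxcl11 the difference went from -0.55 at 3 h to 0.11 at 24 h, an interaction of 0.66 ± 0.11 on the log2 scale (adjusted p = 0.000112). For Cxcl10 it went from 0.01 to 0.45, an interaction of 0.44 ± 0.06 (adjusted p = 2.88e-05), which was 0.32 (adjusted p = 0.567) with all 13 libraries. For Cxcl9 it went the other way, from 0.09 to -0.54, an interaction of -0.64 ± 0.17 (adjusted p = 0.0381). The Cxcl11 interaction passed in 19 of 19 alternative settings and that of Cxcl10 in 18 of 19. That of Cxcl9 passed in 8 of 19, with adjusted p values from 6.43e-08 to 0.168, and it was lost when any single library was left out other than AclyM-KO 3 h replicates 1 and 2. Of the 7 macrophage markers, 3 also passed the interaction, Fcgr1 (0.29, adjusted p = 0.0238), Adgre1 (-0.27, adjusted p = 0.00904) and Lyz2 (-0.43, adjusted p = 0.013), and their part in the ligand values was not tested.

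The neutrophil-attracting ligands gave no interaction that passed. Their values were -0.63 ± 0.36 for Cxcl1 (adjusted p = 0.297), -0.62 ± 0.21 for Cxcl2 (adjusted p = 0.0927) and 0.67 ± 0.34 for Cxcl3 (adjusted p = 0.229). The Cxcl2 value passed in 5 of 19 alternative settings, among them DESeq2 (-0.61, adjusted p = 0.00562), without AclyM-KO 3 h replicate 2 (-0.76, adjusted p = 0.00934) and without control 24 h replicate 2 (-0.72, adjusted p = 0.0401). So the larger Cxcl1 and Cxcl2 differences at 3 h, and the larger Cxcl3 difference at 24 h, were not shown to differ between the times.

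From 3 h to 24 h of LPS, Cxcl1, Cxcl2, Cxcl3 and Cxcl10 fell in both genotypes. In control 4 of the 8 ligands fell and 0 rose, where 19.5% of all tested genes fell and 20.9% rose. In AclyM-KO 4 of 8 fell and 0 rose, where 20% of all tested genes fell and 21.9% rose. Cxcl1 showed the largest change of the 8 and fell by 3.38 on the log2 scale in control (SE 0.23, adjusted p = 1.57e-13) and fell by 4.00 in AclyM-KO (SE 0.20, adjusted p = 8.55e-17). Cxcl3 fell by 2.56 in control and by 1.89 in AclyM-KO. Cxcl2 fell by 0.95 and by 1.57, smaller values than those of its neighbours in both genotypes. In AclyM-KO, however, the 95% confidence interval of its log2 fold change (-1.88 to -1.25) overlapped that of Cxcl3 (-2.32 to -1.45).

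Cxcl10 fell by 2.14 in control (SE 0.05, adjusted p = 1.05e-26) and by 1.70 in AclyM-KO (SE 0.05, adjusted p = 2.89e-24). Cxcl11 read 0.65 lower on the log2 scale at 24 h in control (log2 fold change -0.65, adjusted p = 4.31e-09) and 0.01 higher in AclyM-KO (adjusted p = 0.891), neither beyond the fold limit. Cxcl9 showed the reverse order, with 0.06 in control (adjusted p = 0.649) and -0.58 in AclyM-KO (adjusted p = 0.00102). Cxcl16 had log2 fold changes of -0.13 in control (adjusted p = 0.0213) and -0.04 in AclyM-KO (adjusted p = 0.501), and Cxcl14 had 0.15 (adjusted p = 0.611) and -0.015 (adjusted p = 0.966). None of these 4 values reached the fold limit. At an unadjusted p under 0.05 by edgeR, 6 ligands were lower at 24 h and 0 higher in control, against 36.6% and 39.8% of all tested genes, and 5 were lower and 0 higher in AclyM-KO, against 36.9% and 40.1%. DESeq2 called the same numbers as edgeR.

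**Figure D4:**
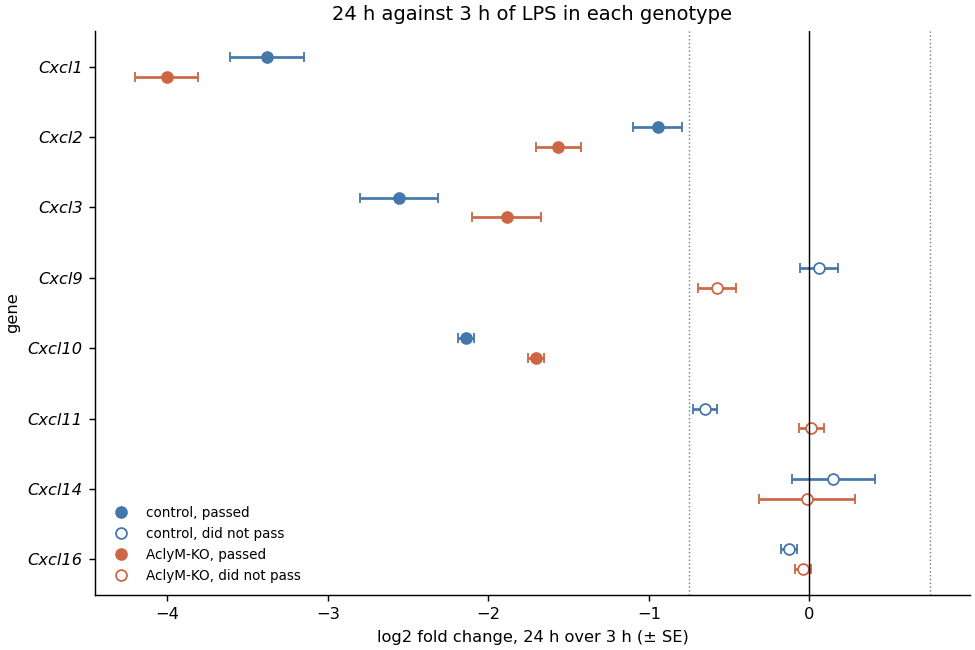
Log2 fold change of 24 h over 3 h of LPS with its SE (horizontal axis) for the 8 CXC ligands (vertical axis) in control and AclyM-KO BMDMs; filled points passed both thresholds and dotted lines mark the fold limit of 0.75. Cxcl1, Cxcl3, Cxcl10 and Cxcl2 passed in both genotypes, and Cxcl9 and Cxcl11 read at different values in the 2 genotypes.

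Per kilobase of transcript, Cxcl10 led in every group, with 3368 ± 87.3 CPM per kb in control at 3 h and 765 ± 39.5 at 24 h (SD, n = 3). It made up 94.4% of the summed per-kilobase level of the 8 ligands in control and 93.2% in AclyM-KO at 3 h, and 82.5% and 87.0% at 24 h. The order in control at 3 h was Cxcl10, Cxcl16 (84.1), Cxcl9 (48.1), Cxcl2 (33.3), Cxcl11 (25.6), Cxcl1 (5.86), Cxcl3 (3.42) and Cxcl14 (0.795 CPM per kb), with no overlap between neighbours. In AclyM-KO at 3 h, Cxcl2 stood in second place with 79.9 ± 11.8 CPM per kb and overlapped Cxcl16 (75.9 ± 3.97), and Cxcl11 (17.5) overlapped Cxcl1 (15.7). At 24 h Cxcl1 and Cxcl3 overlapped each other in both genotypes, at 0.572 and 0.601 CPM per kb in control and 0.971 and 1.23 CPM per kb in AclyM-KO.

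Within each gene, the 4 groups of Cxcl1, Cxcl2 and Cxcl3 had 1 common order, AclyM-KO 3 h, control 3 h, AclyM-KO 24 h and control 24 h, with no overlap between neighbours. Cxcl10 had this order too, but its 3 h groups overlapped. Cxcl11 was highest in control at 3 h, and its other 3 groups overlapped with their neighbours. Cxcl9 was lowest in AclyM-KO at 24 h, and its other 3 groups overlapped. All neighbouring groups of Cxcl14 overlapped, while for Cxcl16 control at 3 h stood above the rest.

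The counts of Cxcl10 and Cxcl11 also appear under another gene. Both lie wholly between exons 2 and 3 of Art3, a gene on the plus strand, and share 0 bases with its exons. Still, the counts of Cxcl10 and Cxcl11 together equal 99.68 to 99.9% of the counts in the Art3 row in the 12 deep libraries. The Art3 row thus held reads from an intron and from the opposite strand, and where Cxcl11 and Cxcl16 were counted in the same way, their reads cannot be told apart from those of Gm2673 and Zmynd15. For Cxcl10 the closest profile over the 12 libraries was accordingly Art3 (Pearson r of log2 CPM = 1 after rounding), followed by the co-stimulatory receptor Cd40 and the cytokine Il15, both with r = 0.998 among 6320 genes above 10 CPM. For Cxcl1 the closest were Mfge8, a bridging protein for the uptake of dying cells (r = 0.992), the transcription factor Cebpd (0.991) and the TNF family ligand Tnfsf15 (0.991) among 6321 genes. These correlations describe 12 libraries that share 4 groups and mostly follow the step from 3 h to 24 h.

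The receptors of these ligands were scarce in the BMDMs. Of 9 CXC and atypical receptors 3 were tested, and Cxcr2, the receptor of Cxcl1, Cxcl2 and Cxcl3, had 0 or 1 count per library. Cxcr3, the receptor of Cxcl9, Cxcl10 and Cxcl11, read 1.54, 1.68 and 1.495 CPM in control and 2.25, 1.66 and 1.68 CPM in AclyM-KO at 3 h, and 0.574, 0.852 and 0.656 CPM against 1.16, 1.49 and 1.11 CPM at 24 h. It rose in AclyM-KO at 24 h (log2 fold change 0.87 ± 0.26, adjusted p = 0.0202) and overlapped at 3 h (0.24, adjusted p = 0.565), a call that was lost without control 24 h replicate 4 (adjusted p = 0.104). Ccrl2, an atypical receptor that presents chemerin, was not scarce, with means of 270 CPM in control and 314 CPM in AclyM-KO at 3 h. At 24 h these were 189 and 244 CPM. Its log2 fold changes were 0.22 at 3 h (edgeR adjusted p = 0.00358) and 0.37 at 24 h (edgeR adjusted p = 6.38e-06), under the fold limit. Cxcr6, the receptor of Cxcl16, had at most 13 counts in a library. Of 7 further CXC ligands, only Pf4 (Cxcl4) was tested, with log2 fold changes of 0.33 at 3 h (adjusted p = 0.00209) and 0.00 at 24 h.

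Among 5 tested proteases known to cleave chemokines or shed Cxcl16, 2 rose in AclyM-KO at 3 h, where 1.41% of all tested genes rose. Mmp8, the collagenase of neutrophils that trims CXC ligands, read 7.59, 7.34 and 6.68 CPM in control and 14.6, 20.7 and 17.4 CPM in AclyM-KO (log2 fold change 1.29 ± 0.14, adjusted p = 2.94e-07). Mmp9 read 2.98, 3.41 and 2.69 CPM against 7.37, 11.2 and 8.12 CPM (1.56 ± 0.22, adjusted p = 5.7e-05). Both groups were apart, and for both genes AclyM-KO replicate 2, the lowest for Cxcl1 and Cxcl2, was the highest. Adam10 and Adam17, the sheddases of Cxcl16, had log2 fold changes between -0.04 and 0.04 at both times and did not pass. At 24 h none of the 5 passed by edgeR, and DESeq2 called Mmp12 (log2 fold change 0.88, adjusted p = 0.0169). At an unadjusted p under 0.05 by edgeR 3 were higher and 0 lower, against 15.1% and 11.2% of all tested genes.

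By both thresholds 1.41% of all tested genes rose and 0.603% fell at 3 h, and 0.896% and 0.486% at 24 h. In the LPS receptor and its adaptors, 1 of 8 genes fell at both times and 0 rose. This was Lbp, the serum protein that hands LPS to Cd14, with a log2 fold change of -1.41 ± 0.23 at 3 h (adjusted p = 5.7e-05) and -1.14 ± 0.28 at 24 h (adjusted p = 0.00521), from at most 67 counts per library. None of the 12 genes of the NF-kB arm and of messenger decay passed both thresholds at either time by edgeR, and none did by DESeq2. At an unadjusted p under 0.05 by edgeR, 4 were higher and 1 lower at 3 h, against 14.6% and 13.4% of all tested genes. At 24 h 6 were higher and 0 lower, against 15.1% and 11.2%. The median log2 fold changes over the 12 were 0.09 (0.085) and 0.12. The largest value at 3 h was that of Nfkbiz, an inducible co-activator of NF-kB, at 0.52 (adjusted p = 3.55e-08) and 0.11 at 24 h (adjusted p = 0.236). In the interferon arm 1 of 12 genes rose at 3 h and 0 at 24 h by edgeR and by DESeq2. At an unadjusted p under 0.05 by edgeR, 2 were higher and 5 lower at 3 h, and 3 were higher and 3 lower at 24 h. Ifnb1, which encodes interferon beta, read 2.18, 1.73 and 2.04 CPM in control and 3.94, 8.17 and 4.37 CPM in AclyM-KO at 3 h (1.48 ± 0.24, adjusted p = 0.000186). AclyM-KO replicate 2 was again the highest, and without it the value was 1.07 (adjusted p = 3e-04).

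**Figure D5:**
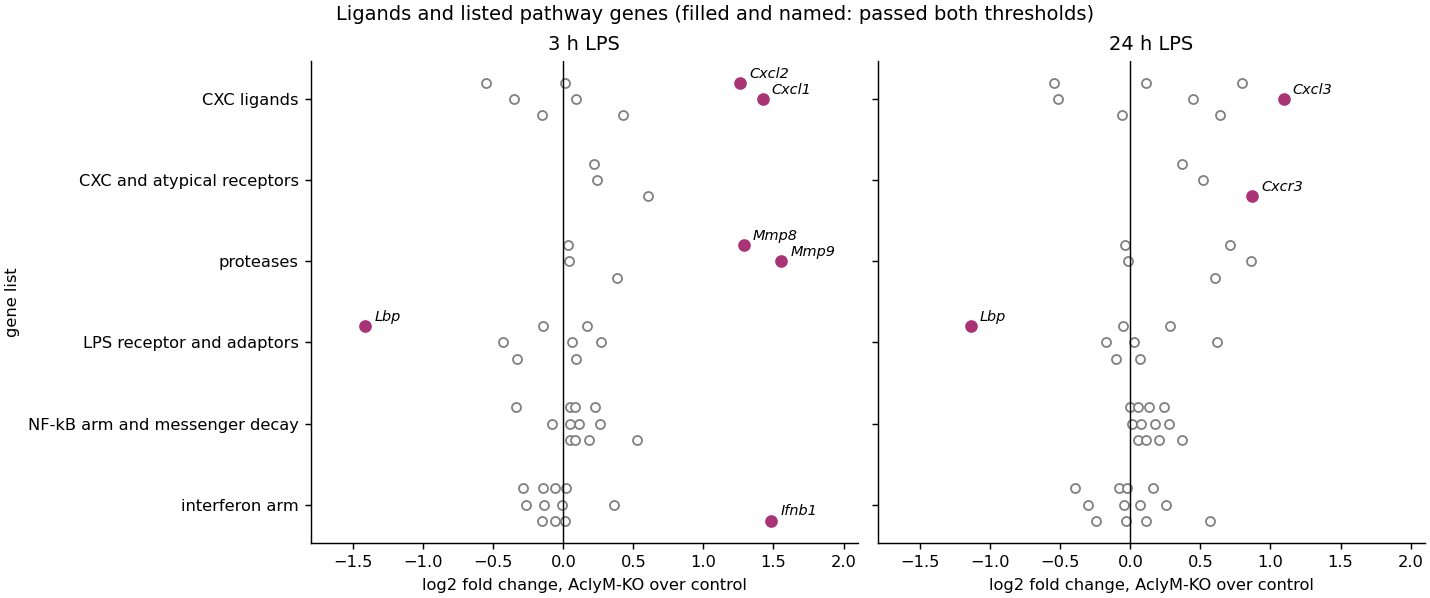
Log2 fold change of AclyM-KO over control (horizontal axes) for the tested genes of 6 lists (rows) after 3 h and 24 h of LPS; each circle is a gene, and filled, named circles passed both thresholds. At 3 h Cxcl1, Cxcl2, Mmp8, Mmp9 and Ifnb1 were higher and Lbp was lower, and at 24 h Cxcl3 and Cxcr3 were higher and Lbp lower.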

How the data were processed

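RNA of 13 BMDM cultures was made into libraries with the KAPA mRNA HyperPrep kit. According to the methods of the study and the processing notes, the authors called bases with CASAVA 1.8.2, aligned reads to mm10 with STAR 2.5.2b and used HOMER to count reads for each RefSeq transcript. The deposited table holds raw counts with no normalization. Of 35745 transcripts, 35628 matched a symbol and 117 did not, and each gene was represented by its highest transcript; 0 columns were left unused. Groups came from the labels. The 8 ligands, the lists of related genes and the markers were chosen with earlier results of these data known.

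Transcripts with too few counts were left out (filterByExpr, minimum count 10), and 19621 transcripts were tested in 1 quasi-likelihood model over 4 groups with TMM scaling (edgeR 4.0.16, limma 3.58.1, R 4.3.3), with Benjamini-Hochberg adjustment over all of them. Control 24 h replicate 1 (34467 counts) was left out. The thresholds followed the study, which used DESeq2 (here version 1.42.0, as an alternative). SEs were derived from the F statistics. The test of AclyM-KO against control at 3 h was checked on data simulated with changes of a single size. Smaller changes and the other comparisons were not checked in this way. The text names all 8 ligands, the genes of these lists that passed, and the 3 profiles most like Cxcl1 and Cxcl10; list genes named without passing were chosen after their values were seen. Alternatives were all 13 libraries, other scalings, no filter, DESeq2, 1 transcript per gene, a replicate block, each library left out, and other fold limits. Depth of 21274102 to 59577343 counts makes values under about 1 CPM rest on few counts.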

Additional observations from a re-analysis of the deposited data

Results flagged for a closer look

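In the group of 4 control libraries at 24 h, the shallow replicate 1 stood apart from the other 3 for 3 of the 8 ligands: Cxcl10 at 2508 CPM, Cxcl2 at 67.2 CPM and Cxcl16 at 67.2 CPM. The last 2 values are 3 counts each. In this library 1 count equals 22.4 CPM, against 0.0156 to 0.0435 CPM in the other control libraries at 24 h. Dixon's test assumes libraries of like spread and was run on each of the 8 ligands, so its usual rate of 1 in 20 does not apply here. The gap took up 0.953 of the range for Cxcl10, 0.867 for Cxcl2 and 0.967 for Cxcl16, above Dixon's 95% limit for 4 libraries.

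The interaction of genotype and time passed for 3 ligands, Cxcl11 (interaction 0.66 on the log2 scale), Cxcl10 (0.44) and Cxcl9 (-0.64). The Cxcl10 call was lost with all 13 libraries, and the Cxcl9 call passed in 8 of 19 alternative settings and was lost without most single libraries. Among the listed pathway genes, the interaction also passed for Tirap (0.61), Ticam1 (0.45), Ifnar1 (0.30), Ifnar2 (0.24) and Stat2 (0.22), all upward, and for Nfkbiz (-0.41), Tlr4 (-0.37) and Pf4 (-0.33), all downward, and among the macrophage markers for Fcgr1 (0.29), Adgre1 (-0.27) and Lyz2 (-0.43). The calls of Pf4, Ticam1, Ifnar1, Ifnar2 and Stat2 were lost without single libraries, and without AclyM-KO 24 h replicate 1 their adjusted p values were 0.0688, 0.058, 0.062, 0.0964 and 0.114.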

How the results depend on the processing

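Of 79 counts of ligands under alternative settings, 76 stayed within 1.5 times the main count. This margin compares numbers and not which ligands were called. It also admits the loss of the Cxcl9 interaction, which passed in 8 of 19 settings. With the adjusted p alone, a limit chosen after seeing the data, 4 ligands passed at 3 h and 4 at 24 h. Leaving out a library gave 0 to 1 called ligand at 24 h, with 0 without AclyM-KO 24 h replicate 1; the cause was not tested. Single values near zero changed sign. Cxcl11 from 3 h to 24 h in AclyM-KO was -0.02 (-0.018) with DESeq2 size factors and with DESeq2, -0.004 with 1 transcript per gene, and -0.04 to 0.07 (-0.043 to 0.072) without single libraries. Upper-quartile scaling, which moves the median of all genes between the times to 0.16 in control and 0.15 in AclyM-KO, gave -0.008 for Cxcl10 at 3 h, and 0.09 (0.088) for Cxcl14 and 0.07 (0.067) for Cxcl16 from 3 h to 24 h in AclyM-KO. Without single libraries, Cxcl10 at 3 h ran from -0.002 to 0.035, Cxcl9 at 3 h from -0.05 to 0.22, the Cxcl14 interaction from -0.48 to 0.17, and Cxcl14 over time from -0.32 to 0.31 in AclyM-KO and from -0.024 to 0.27 in control.

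The replicate numbers did not pair the samples (correlations of same-numbered deviations -0.089 to 0.181), which share only a number. With a replicate block the counts of called ligands stayed 2 at 3 h and 1 at 24 h, but the called gene at 24 h was Cxcl2 (0.78, adjusted p = 1.05e-05) and not Cxcl3 (0.85, adjusted p = 0.147), and the adjusted p of Cxcl9 at 24 h was 0.122 (-0.49). With the block the Cxcl14 interaction was 0.019 and Cxcl14 over time in control -0.03. Cxcl1, Cxcl3 and Cxcl14 at 24 h rest on few counts, which limits their precision.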

Other observations

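Of the CXC ligands too low to be tested, Ppbp (Cxcl7, the platelet basic protein) had 2, 1 and 3 counts in the control libraries at 3 h and 9 counts in each of the 3 AclyM-KO libraries, and at most 1 count in any library at 24 h. It was singled out after its values were seen and was not tested. Cxcl5, Cxcl13, Cxcl15 and Cxcl17 had at most 1 count in any library, and Cxcl12 had at most 1 count except for 8 in AclyM-KO 3 h replicate 1. Pf4, which lies in the same ligand family, read 43.1 to 45.1 CPM in control and 49.3 to 62.9 CPM in AclyM-KO at 3 h.

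Pecam1, a marker of endothelium that some myeloid cells also express, rose in AclyM-KO at 24 h, from 2.13, 2.73 and 2.60 CPM to 7.28, 4.10 and 5.52 CPM (log2 fold change 1.17, adjusted p = 2.67e-05). AclyM-KO 24 h replicate 1 was the highest library for both Pecam1 and Cxcl3, and the part of cells that express Pecam1 in the ligand values was not tested. The 7 stromal and endothelial markers summed to 3.11 to 4.6 CPM in control and 5.27 to 9.34 CPM in AclyM-KO at 24 h. Pecam1 had the largest difference among them, and of the 4 tested markers the other 3 did not pass by edgeR. These were Cdh5, also a marker of endothelium (log2 fold change -0.01, adjusted p = 0.99), Pdgfrb (0.03, adjusted p = 0.974) and Dcn (-0.40, adjusted p = 0.506).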
